A study of Arabidopsis thaliana with 22 samples.

Results

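The intergenic windows described here are stretches of 50 bp of the Arabidopsis thaliana plastid genome that hold no base of an annotated plastid gene. The genome was cut into consecutive 50 bp windows from position 1 up to the end of the small single copy region, so that 1 of the 2 copies of the inverted repeat was covered. Of 2565 windows, 680 had no base in a gene and 1885 had at least 1. The 680 windows lay in 95 gaps between neighbouring genes, with 1 to 55 windows to a gap and a median of 5. By the direction of the neighbouring genes, 215 windows lay in 17 divergent gaps, which the starts of both neighbours face, 370 in 63 tandem gaps, which face 1 start and 1 end, and 95 in 15 convergent gaps, which the ends of both neighbours face. The inverted repeat held 128 of the 680 windows and the single copy regions the rest.

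Accessibility was measured by ptATAC-seq: the Tn5 transposase places adapters in plastid DNA it can reach, and each insertion is counted at its position. Nucleoid plastid DNA was compared with Naked plastid DNA, both from rosette leaves of wild-type plants of ecotype Col0, grown on soil to an age of 14 days in long days. Both fractions share 1 description in the labels: chloroplasts pelleted from a leaf homogenate, fixed in 4% formaldehyde for 4 h, and libraries made with a Nextera kit; how the Naked DNA was freed of protein is not given in the sources used here. The labels number 11 libraries of each fraction, and nothing says whether they came from separate plants or preparations, so p-values measure the spread between libraries, which may be technical.

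In chloroplasts the genome is packed with proteins and RNA into nucleoids, and most plastid genes are transcribed in groups from promoters that lie in the gaps. One RNA polymerase is encoded in the plastid itself and serves chiefly photosynthesis genes, while a nuclear-encoded, phage-type polymerase serves several housekeeping genes. Tn5 also cuts bare DNA unevenly, and libraries from protein-free DNA are generally made to record that unevenness.

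Nucleoid replicates 9 and 10 held equal counts at all 154477 positions, differed by less than the sampling noise and were counted as 1 sample, which left 10 Nucleoid and 11 Naked libraries. Totals ran from 202725 to 1813905 counts in Nucleoid libraries and from 105763 to 1195649 in Naked libraries. Libraries with over 600000 counts, called deep here, numbered 8 in the Nucleoid and 5 in the Naked fraction, so depth differed between the fractions. Intergenic windows took 14829 to 300904 counts of a library. In the shallowest library for each window the median count was 14 for intergenic windows and 28 for windows with a gene base, and 34 of the 680 intergenic windows had a library at 0. Counting error alone is therefore wide for single intergenic windows. How reads that match both copies of the inverted repeat were placed is not given in the sources used here, so values of repeat windows cannot be assigned to 1 copy.

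Signal is a window's mean count per position divided by the library's own mean over the plastid genome and given in percent, so that 100 is the genome mean. Intergenic windows were low in both fractions: their mean signal was 69.4 ± 5.8 in the Nucleoid fraction (SD, n = 10) and 62.5 ± 7.2 in the Naked fraction (SD, n = 11), against 103.8 ± 0.7 in Nucleoid and 103.0 ± 2.1 in Naked libraries for windows with a gene base. Averaged over all libraries, 547 of the 680 intergenic windows lay below the genome mean, and single windows ran from 0.587 to 215.6. Nucleoid libraries ran from 57.3 over a median of 69.3 to 76.8, and Naked libraries from 50.6 over a median of 63.3 to 72.2. The fractions overlapped: 9 of 10 Nucleoid libraries exceeded the Naked median and 3 exceeded the highest Naked library. The difference of 6.86 points turned to -4.61 when each library was scaled to its median window in place of its genome mean. A measure that no scaling moves is the log2 ratio of gene windows to intergenic windows within a library. It was 0.59 ± 0.12 in Nucleoid libraries and 0.73 ± 0.15 in Naked libraries, with 9 of 10 Nucleoid values under the Naked median.

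Depth moved with these values. In deep libraries alone the intergenic mean was 71.4 ± 3.9 in the Nucleoid fraction (SD, n = 8) and 68.7 ± 3.8 in the Naked fraction (SD, n = 5), with 4 of 8 Nucleoid values over the Naked median. In the other libraries it was 61.4 ± 5.9 in the Nucleoid fraction (SD, n = 2) and 57.4 ± 5.0 in the Naked fraction (SD, n = 6). The part of the depth gap in the pooled difference was not tested beyond these values. The single copy regions and the repeat also stood apart. Intergenic windows of the single copy regions had a mean signal of 58.8 ± 8.3 in Nucleoid and 49.0 ± 11.1 in Naked libraries, while those of the inverted repeat had 114.9 ± 5.8 in Nucleoid and 120.9 ± 12.6 in Naked libraries. In the repeat 4 of 10 Nucleoid values exceeded the Naked median. Among deep libraries the repeat windows had 113.2 ± 4.8 in Nucleoid and 112.6 ± 2.7 in Naked libraries, so the lower Nucleoid value did not hold there. The single copy windows had 61.7 ± 5.6 in Nucleoid and 58.5 ± 5.3 in Naked deep libraries.

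**Figure D1:**
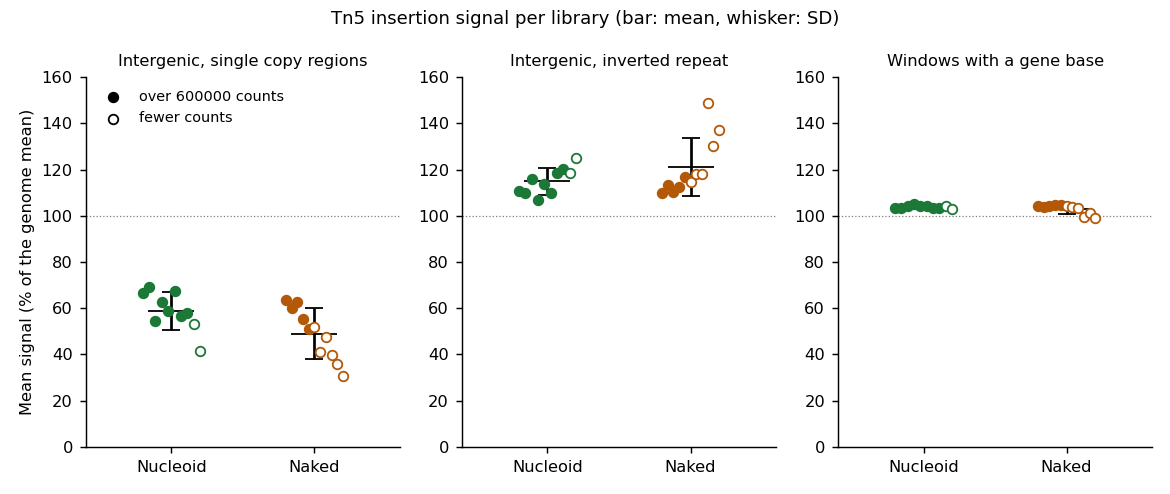
Mean signal of intergenic windows in the single copy regions and in the inverted repeat, and of windows with a gene base, as a percent of the genome mean, for each Nucleoid and Naked library; the bar is the mean, the whisker the SD, and filled points are libraries with over 600000 counts. Single copy intergenic windows sit below the genome mean in every library, at 58.8 in Nucleoid and 49.0 in Naked libraries on average, and the lowest libraries of both fractions are shallow ones; scaled to the median window, the difference over all intergenic windows is -4.61 points.

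Each window was tested with limma on log2(signal + 1), with Benjamini-Hochberg adjustment over 2560 windows and a threshold of 0.05; windows that pass are called here. Among the 675 intergenic windows tested, 139 were called higher in Nucleoid libraries (20.6%), against 15.9% of all windows tested, and 30 were called lower (4.44%), against 9.06% of all windows. Of windows with a gene base, 14.3% were called higher and 10.7% lower. The median difference over intergenic windows was 0.37 on the log2 scale, Nucleoid minus Naked, and 0.24 over all windows. With each library scaled to its median window, 65 intergenic windows were called higher and 38 lower, against 7.15% and 11.4% of all windows, so that 63.1% of intergenic calls were higher in place of 82.2%. That scaling took the median of all windows to 0.02 and left the intergenic median 0.13 above it, as in the first scaling. Scaling shifts all windows of a library nearly alike, so this offset could hardly change. It was 0.034 with log2 depth as a covariate and 0.070 in deep libraries. The 5 intergenic windows not tested had a mean count under 10.

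The count of calls followed the libraries used. With log2 depth as a covariate, 29 intergenic windows were called higher and 24 lower, against 4.02% and 6.21% of all windows. Among deep libraries 29 were called higher and 13 lower of 676, against 3.51% and 2.97%. Without Naked replicates 9 to 11, 54 were called higher and 21 lower, against 7.19% and 6.21%. Single libraries moved it as well. Higher calls numbered 59 to 90 when any of Nucleoid replicates 1, 2 and 4 to 8 or Naked replicates 7, 9, 10 and 11 was left out. They numbered 215 to 249 without Nucleoid replicate 11, Naked replicate 1 or Naked replicate 3. Windows called in the same direction with all libraries and in each of these 3 alternatives numbered 14 higher and 9 lower among intergenic windows, against 1.56% higher and 1.99% lower of all windows. Of those 14, 9 lay in the single copy regions and 11 were nearest to a protein-coding gene. Of the 675 intergenic windows tested, 547 lay in the single copy regions and 431 were nearest to a protein-coding gene. The single copy share of the 14 was thus not above that of all intergenic windows tested. Of the 9 lower, 8 lay in the inverted repeat, which held 128 of the intergenic windows, and 9 were nearest to a gene for a transfer or ribosomal RNA.

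In the single copy regions 122 of 547 intergenic windows were called higher and 4 lower, which is 22.3% and 0.731%. Of single copy windows with a gene base, 14.2% were called higher and 7.92% lower. In the inverted repeat 17 of 128 intergenic windows were called higher and 26 lower, which is 13.3% and 20.3%. Repeat windows with a gene base had near shares, at 14.4% higher and 21.2% lower.

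Calls also followed the level of a window. Of the windows with a mean signal under 25 over all libraries, 41 of 106 were called higher and 0 lower; 5 more were not tested, and for gene and intergenic windows of that level together 58 of 154 were called higher. Between 25 and 50, 40 of 173 were called higher and 0 lower, and between 50 and 100, 47 of 263 were called higher and 3 lower. At 100 or more, 11 of 133 were called higher and 27 lower, which is 8.27% and 20.3%, against 5.17% and 19.5% of gene and intergenic windows of that level together. The median difference was 0.80 in the lowest class and -0.04 in the highest, on the log2 scale. Mean signal in the lowest class was 20.1 ± 6.2 in Nucleoid and 12.3 ± 5.7 in Naked libraries, and in the highest it was 128.3 ± 6.7 in Nucleoid and 136.1 ± 11.8 in Naked libraries. The spread between libraries was also wider in intergenic windows, with a median SD of log2 signal of 0.32 in Nucleoid and 0.53 in Naked libraries, against 0.21 in Nucleoid and 0.42 in Naked libraries for windows with a gene base.

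Pooled over the tiled genome, the kind of the nearest gene went with the direction of the difference. Windows nearest to a protein-coding gene had a mean signal of 66.1 ± 7.3 in Nucleoid libraries and 54.6 ± 10.5 in Naked libraries, and 107 of 431 were called higher and 2 lower. Nucleoid libraries ran from 50.8 over a median of 66.6 to 75.9, and Naked libraries from 37.9 over a median of 56.2 to 68.9. Windows nearest to a transfer RNA gene had 73.0 ± 3.9 in Nucleoid and 72.7 ± 4.0 in Naked libraries, with 31 of 233 called higher and 23 lower. The 11 windows nearest to a ribosomal RNA gene had 120.6 ± 9.6 in Nucleoid and 153.3 ± 29.4 in Naked libraries, and 1 was called higher and 5 lower. There all 10 Nucleoid values were under the Naked median, and 5 were under the lowest Naked value. Under median scaling the difference was 3.05 points for protein-coding neighbours, -15.2 for transfer RNA neighbours and -76.1 for ribosomal RNA neighbours. The difference for transfer RNA neighbours, 0.23 points before, thus took the other sign. Among deep libraries, scaled to the genome mean, the differences were 4.86, -0.42 and -12.7 points in the same order. The sign beside transfer RNA genes depended on the region. In the single copy regions that difference was 5.57 points with all libraries and 0.71 among deep libraries, and in the repeat it was -3.35 among deep libraries. All 11 windows nearest to a ribosomal RNA gene lay in the repeat. Of all windows tested, 15.9% were called higher and 9.06% lower.

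The log2 ratio of transfer RNA neighbours to protein-coding neighbours, which no scaling moves, was 0.15 ± 0.10 in Nucleoid libraries and 0.44 ± 0.24 in Naked libraries. Nucleoid libraries ran from 0.02 to 0.36 with a median of 0.15, and Naked libraries from 0.14 to 0.82 with a median of 0.39. No Nucleoid library reached the Naked median. The same held within each part of the genome. In the single copy regions the ratio was -0.05 ± 0.06 in Nucleoid and 0.15 ± 0.16 in Naked libraries, and in the inverted repeat it was -0.03 ± 0.06 in Nucleoid and 0.26 ± 0.14 in Naked libraries, with 0 of 10 Nucleoid libraries above the Naked median in both. In deep libraries it was 0.12 ± 0.07 in the Nucleoid fraction (n = 8) and 0.23 ± 0.08 in the Naked fraction (n = 5), with 1 of 8 Nucleoid libraries above the Naked median. In the other libraries it was 0.28 ± 0.11 in the Nucleoid fraction (n = 2) and 0.61 ± 0.19 in the Naked fraction (n = 6).

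Calls were also counted by signal level and neighbour, without a test of the difference. At a mean signal of 100 or more, 2 of 68 windows nearest to a transfer RNA gene were called higher and 21 lower, while 9 of 55 nearest to a protein-coding gene were called higher and 1 lower. That class has no upper edge, and 20 of the 23 lower calls beside transfer RNA genes over all levels lay in the inverted repeat. Under 25 the shares were alike, with 13 of 34 called higher beside transfer RNA genes and 28 of 72 beside protein-coding genes, and 0 lower in both.

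**Figure D2:**
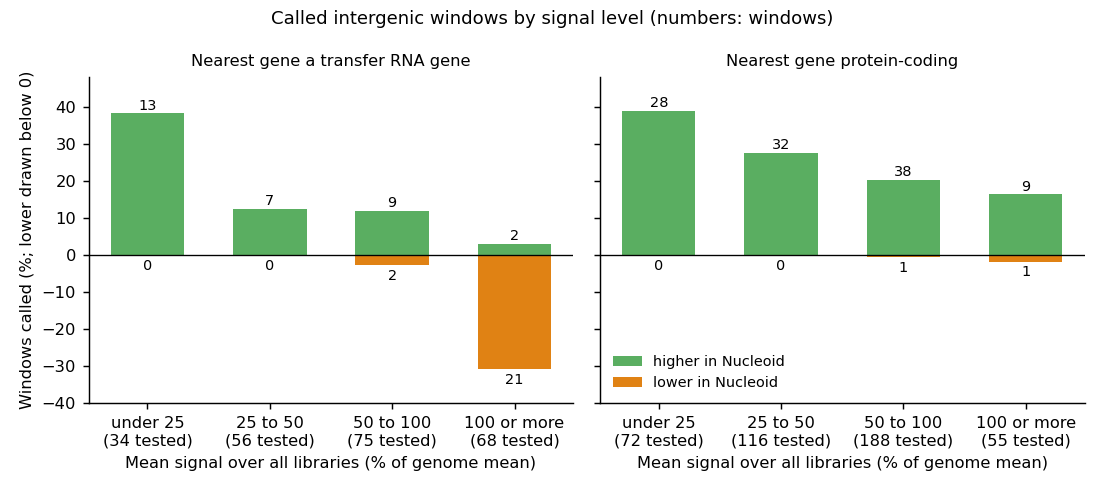
Percent of intergenic windows called higher (above 0) or lower (drawn below 0) in Nucleoid libraries, by mean signal over all libraries as a percent of the genome mean, for windows nearest to a transfer RNA gene and to a protein-coding gene; numbers on the bars are windows. Lower calls gather in the highest class beside transfer RNA genes, where 21 of 68 windows were called lower, while 1 of 55 was beside protein-coding genes; under median scaling, calls over all intergenic windows were 65 higher and 38 lower.

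Distance to the nearest gene had a median of 116.5 bp and reached 1355 bp. Windows under 50 bp from a gene had a mean signal of 70.5 ± 6.5 in Nucleoid and 63.7 ± 7.1 in Naked libraries. Windows at 50 to 100 bp had 67.6 ± 6.7 in Nucleoid and 61.5 ± 8.1 in Naked libraries. Those at 100 to 200 bp had 65.8 ± 7.2 in Nucleoid and 57.8 ± 9.4 in Naked libraries, and those at 200 to 400 bp had 65.6 ± 5.5 in Nucleoid and 58.0 ± 7.2 in Naked libraries. Each class was higher in the Nucleoid fraction by 6.15 to 8.04 points, and lower by 1.74 to 4.93 points under median scaling. In the farthest class, at 400 bp or more, signal was 86.3 ± 1.9 in Nucleoid and 82.6 ± 5.2 in Naked libraries. That class rests on the long gap between rps7 and trnV (Arthct121) in the inverted repeat: without it the 29 windows left had 52.6 ± 7.4 in Nucleoid and 41.6 ± 12.1 in Naked libraries.

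Calls by distance ran from 16.2% to 24.8% higher over the 5 classes and from 0.690% to 8.82% lower. Of all windows tested, 15.9% were called higher and 9.06% lower. The log2 ratio of windows under 50 bp to windows at 200 to 400 bp was 0.10 ± 0.03 in Nucleoid and 0.14 ± 0.03 in Naked libraries. In the single copy regions it was 0.17 ± 0.03 in Nucleoid and 0.14 ± 0.05 in Naked libraries, and in the inverted repeat it was -0.08 ± 0.07 in Nucleoid and 0.12 ± 0.14 in Naked libraries. The sign of the Nucleoid minus Naked difference in this ratio therefore depended on the part of the genome.

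Within the inverted repeat, distance and kind of neighbour went together. The 9 repeat windows at 50 to 100 bp from a transfer RNA gene had a mean signal of 103.6 ± 8.6 in Nucleoid and 143.7 ± 23.2 in Naked libraries, and 7 of the 9 were called lower. All 10 Nucleoid libraries, at 86.4 to 115.3, lay below the lowest Naked library, at 115.5. Repeat windows at 50 to 100 bp from a protein-coding gene had 130.2 ± 11.7 in Nucleoid and 111.1 ± 8.1 in Naked libraries, and 3 of 7 were called higher and 0 lower. Of all repeat intergenic windows, 13.3% were called higher and 20.3% lower, and of all windows tested 15.9% and 9.06%. Among deep libraries, repeat windows at 50 to 100 bp from any gene had 115.2 ± 5.5 in Nucleoid and 121.3 ± 5.6 in Naked libraries.

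**Figure D3:**
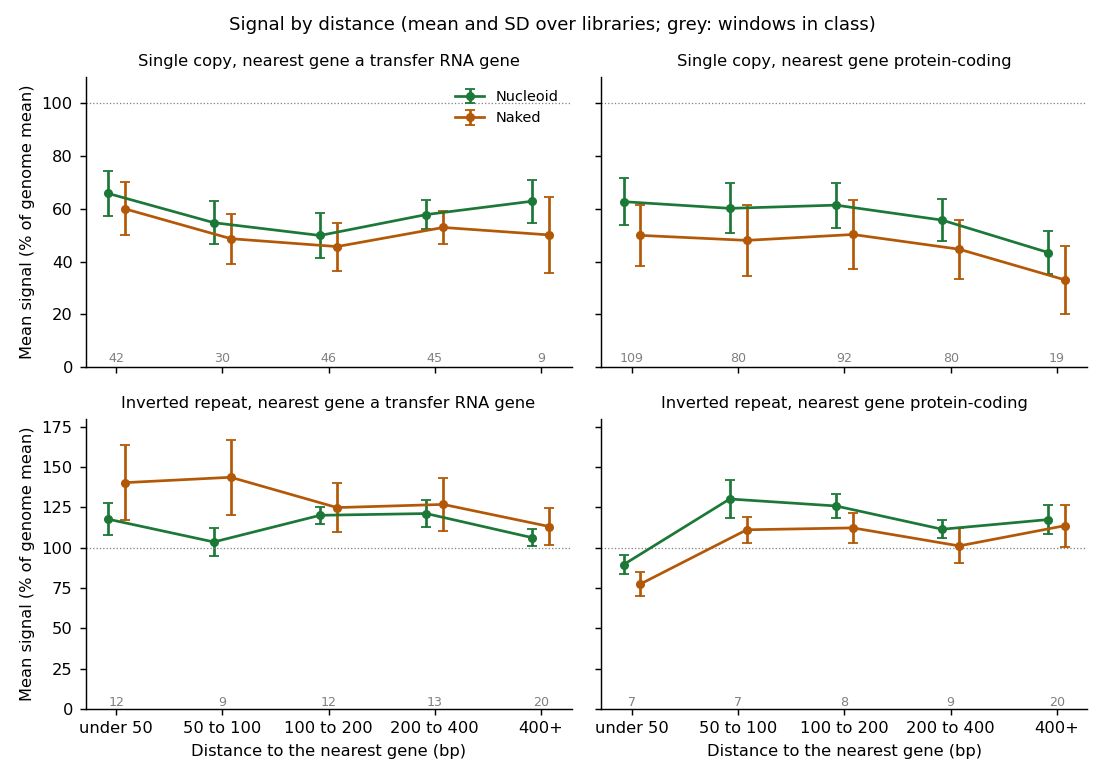
Mean signal of intergenic windows as a percent of the genome mean by distance to the nearest gene in bp, for Nucleoid and Naked libraries; points are means over libraries, whiskers are SDs, and grey numbers count the windows of a class. The widest gap between the lines is in the inverted repeat at 50 to 100 bp from a transfer RNA gene, at 103.6 in Nucleoid and 143.7 in Naked libraries.

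By gap type, windows of divergent gaps had a mean signal of 70.1 ± 4.6 in Nucleoid and 63.1 ± 6.9 in Naked libraries. Windows of tandem gaps had 65.7 ± 6.8 in Nucleoid and 58.2 ± 8.1 in Naked libraries, and those of convergent gaps had 82.4 ± 4.4 in Nucleoid and 78.4 ± 5.0 in Naked libraries. Under median scaling each of these differences was below 0, at -4.70, -2.79 and -11.5 points. The order of the types depended on the inverted repeat: in the single copy regions divergent gaps were the lowest, at 53.5 ± 8.0 in Nucleoid and 43.7 ± 10.9 in Naked libraries, and convergent gaps the highest, at 66.1 ± 8.6 in Nucleoid and 56.2 ± 13.7 in Naked libraries. There the log2 ratio of divergent to tandem gaps was -0.16 ± 0.02 in Nucleoid and -0.21 ± 0.07 in Naked libraries. Calls were 41 higher and 8 lower of 213 in divergent gaps, 82 higher and 15 lower of 367 in tandem gaps, and 16 higher and 7 lower of 95 in convergent gaps. By the end of the nearest gene, 86 of 393 were called higher and 16 lower at starts, and 53 of 282 were called higher and 14 lower at ends. For comparison, 20.6% of all intergenic windows tested were called higher and 4.44% lower. Of all windows tested it was 15.9% and 9.06%.

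Windows within 300 bp of the starts of known transcription units were described by the polymerase that usually serves them. At 9 starts usually served by the plastid-encoded polymerase, 10 of 51 windows were called higher and 2 lower, with a median difference of 0.17 on the log2 scale. Over all intergenic windows the shares were 20.6% and 4.44% and over all windows 15.9% and 9.06%, so the first count is near the background. At 4 starts usually served by the nuclear-encoded polymerase, those of rpoB, accD, clpP and ycf2, 8 of 19 were called higher and 0 lower, with a median difference of 0.52. Mean signal there was 64.7 ± 7.3 in Nucleoid and 51.3 ± 12.9 in Naked libraries, with 3 of 10 Nucleoid libraries above every Naked library. Within 300 bp of the ends of 3 of these genes it was 79.9 ± 7.0 in Nucleoid and 69.0 ± 7.2 in Naked libraries. There 5 of 10 Nucleoid libraries lay above every Naked library, and 2 of 15 windows were called higher and 0 lower. At 5 ends of the plastid-encoded polymerase list, 7 of 24 were called higher and 4 lower, with a median difference of 0.33. The windows before accD, which encodes a subunit of acetyl-CoA carboxylase, had 53.4 ± 9.1 in Nucleoid and 37.7 ± 11.7 in Naked libraries, and 4 of 6 were called higher. Those before rpoB, a core subunit of the plastid-encoded polymerase, had 72.7 ± 6.9 in Nucleoid and 56.7 ± 17.3 in Naked libraries, and 3 of 6 were called higher. Before clpP, for a protease subunit, 1 of 6 was called higher, and the 1 window before ycf2 was not called. The differences between the 2 lists and between starts and ends were not tested, and single starts varied within each list.

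Among starts of photosynthesis genes, the windows before psbD, for the D2 protein of photosystem II, had 85.5 ± 12.4 in Nucleoid and 73.7 ± 11.4 in Naked libraries, and 2 of 6 were called higher. Those before rbcL, for the large subunit of Rubisco, had 71.5 ± 9.4 in Nucleoid and 62.1 ± 7.4 in Naked libraries, with 2 of 6 called higher. Those before psbA, for the D1 protein, had 76.0 ± 8.2 in Nucleoid and 68.8 ± 13.8 in Naked libraries, with 1 of 5 called higher. Before atpB, for a subunit of ATP synthase, 3 of 6 were called higher, with a median difference of 0.47. Before psbK, a small photosystem II subunit, 2 of 6 were called higher, with a median of 0.55; these windows also lie before trnQ (ArthCt090). Before psbB and psbE, both for photosystem II, 0 of 6 were called. Before psaA, for a core subunit of photosystem I, signal was 57.6 ± 8.5 in Nucleoid and 63.9 ± 6.7 in Naked libraries and 0 of 6 windows were called. Before rrn16S, for the RNA of the small ribosomal subunit, it was 126.6 ± 17.2 in Nucleoid and 165.2 ± 32.9 in Naked libraries, and 2 of 4 windows were called lower. Around 28 transfer RNA starts, 20 of 131 windows were called higher and 10 lower, with a median difference of 0.32. Windows called lower lay at 5 of those starts and windows called higher at 13. These counts of windows are near the shares over all windows, 15.9% higher and 9.06% lower. Before trnI (ArthCt107), in the ribosomal RNA operon, 4 of 5 were called lower, with 105.4 ± 15.4 in Nucleoid and 155.3 ± 35.3 in Naked libraries.

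Intergenic windows with large differences among those called in every library set were named. A window at positions 65101 to 65150 lay in the divergent gap between psbE, a cytochrome b559 subunit, and petL, a small subunit of the cytochrome b6f complex. Its signal was 15.2 at the lowest, 20.3 at the median and 33.4 at the highest in Nucleoid libraries, and 2.98, 11.7 and 14.2 in Naked libraries. There the fractions did not overlap, and the log2 difference was 1.21 ± 0.24 (SE), with an adjusted p of 0.0030 by limma. The fold is on the log2(signal + 1) scale, which understates changes of low windows. At positions 63151 to 63200, in the convergent gap between petA, for cytochrome f, and psbJ, a small photosystem II subunit, signal was 11.1, 16.6 and 23.3 in Nucleoid and 2.88, 8.14 and 11.7 in Naked libraries, with a difference of 1.12 ± 0.23 (SE, adjusted p = 0.0035). Both windows were low in both fractions, with as few as 2 counts in a single library.

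Other single copy windows called higher in every library set lay in the gaps petN to psbM and trnH (ArthCt088) to psbA. The window at positions 28251 to 28300, 72 bp past the end of petN, a small cytochrome b6f subunit, had 15.2, 30.2 and 47.9 in Nucleoid and 7.60, 16.3 and 25.6 in Naked libraries. At positions 251 to 300, 82 bp past the end of psbA, signal was 34.7, 45.6 and 62.9 in Nucleoid and 17.3, 27.2 and 38.9 in Naked libraries. The log2 differences were 0.90 and 0.76, and in each of these windows 8 of 10 Nucleoid libraries lay above every Naked library. One more, chosen after its values were seen, was the window at positions 32651 to 32700, 10 bp before the start of psbD. It had a signal of 110.6, 138.4 and 164.2 in Nucleoid and 76.0, 109.5 and 132.8 in Naked libraries, with a difference of 0.39 ± 0.10 (SE, adjusted p = 0.013).

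Of the 8 named windows that were lower, 7 lay in the inverted repeat. The window at positions 107501 to 107550 borders rrn23S in the gap of 98 bp between rrn23S and rrn4.5S, both for RNAs of the large ribosomal subunit, and had the highest mean signal of any intergenic window. Its signal was 102.4, 147.1 and 193.2 in Nucleoid and 190.4, 240.9 and 412.2 in Naked libraries, and 9 of 10 Nucleoid libraries lay below every Naked library. The log2 difference was -0.87 ± 0.15 (SE, adjusted p = 0.0014). At positions 107851 to 107900, 48 bp before the ribosomal RNA gene ArthCr091, signal was 113.9, 161.9 and 178.6 in Nucleoid and 184.8, 236.5 and 366.6 in Naked libraries, without overlap, and the difference was -0.70 ± 0.12 (SE, adjusted p = 0.0014). At positions 100851 to 100900, 70 bp past the end of trnV (Arthct121) on the side of rrn16S, it was 82.9, 112.7 and 128.6 in Nucleoid and 144.5, 162.5 and 253.6 in Naked libraries, again without overlap. There the difference was -0.72 ± 0.11 (SE, adjusted p = 6.9e-04).

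Next to transfer RNA genes of the repeat, a window at positions 108401 to 108450, 25 bp past the end of trnR (ArthCt127), had 54.5, 82.5 and 97.5 in Nucleoid and 87.0, 127.0 and 207.3 in Naked libraries. A window at positions 94151 to 94200, 75 bp past the end of trnL (ArthCt126), had 103.2, 126.4 and 157.0 in Nucleoid and 153.0, 194.8 and 290.9 in Naked libraries. The differences were -0.76 ± 0.14 and -0.64 ± 0.11 (SE), with adjusted p-values of 0.0023 and 0.0018. In the single copy regions the window at positions 27501 to 27550, 57 bp past the end of trnC (ArthCt094), was called lower in every library set. It had 76.2, 115.0 and 136.4 in Nucleoid and 119.4, 147.9 and 169.8 in Naked libraries, a difference of -0.39 ± 0.10 (SE, adjusted p = 0.014). These windows, the one before psbD included, were each called in all 21 fits that leave out 1 library. Among the windows named for their large differences, median scaling ended 1 call, at positions 100351 to 100400 in the gap between rps7 and trnV, with an adjusted p of 0.11 by limma. Whether the window before psbD keeps its call under median scaling is not given here.

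**Figure D4:**
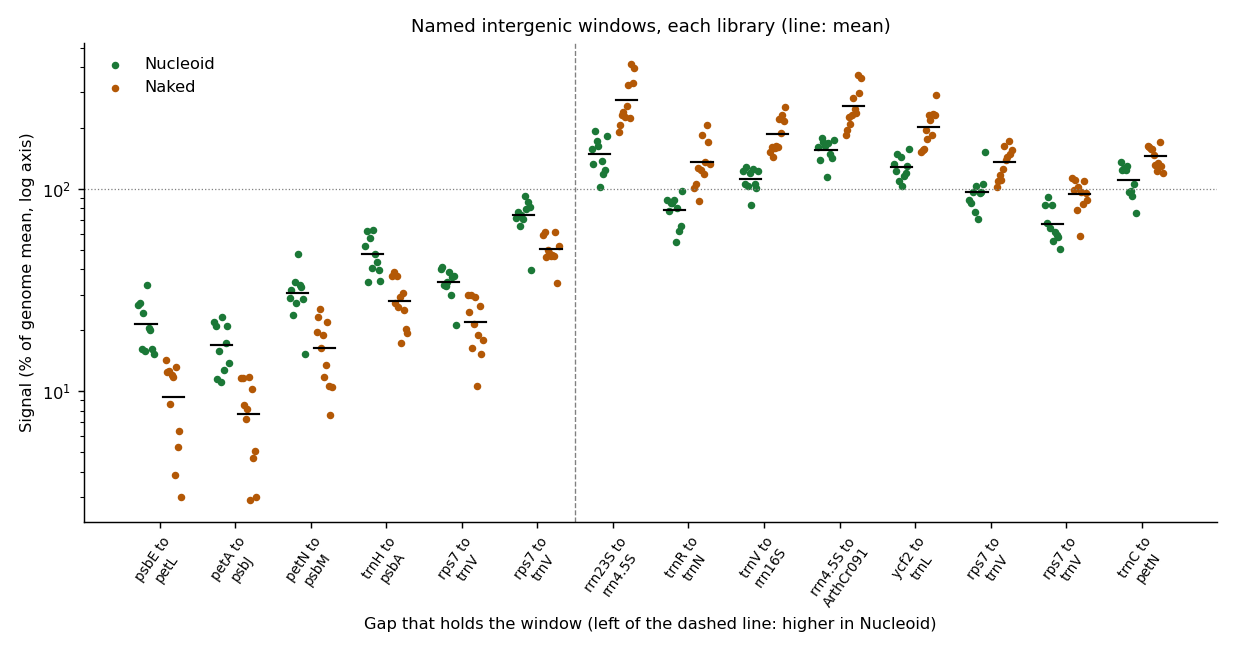
Signal in each library, as a percent of the genome mean on a log axis, of 6 windows named as higher (left of the dashed line) and 8 named as lower (right) in Nucleoid libraries; each point is a library, Nucleoid left of Naked, and lines are means. The windows plotted as higher average 74.0 or less in Nucleoid libraries, and 7 of the 8 plotted as lower lie in the inverted repeat.

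Along the ribosomal RNA operon of the repeat, 19 intergenic windows lay in 6 gaps that border a ribosomal RNA gene. Of these, 12 were called lower and 1 higher, and their median difference was -0.42. Windows with a gene base in the repeat were also often lower, at 21.2% called lower and 14.4% higher. The third highest intergenic window, at positions 102651 to 102700 between rrn16S and trnI, had 130.5, 161.0 and 221.0 in Nucleoid and 152.5, 219.0 and 340.2 in Naked libraries. Its difference of -0.49 was called with all libraries (adjusted p = 0.019) and not among deep libraries (adjusted p = 0.24). Closer to trnI the difference was larger with all libraries. The window at positions 102751 to 102800 borders trnI and was picked after its values were seen. It averaged 49.7 in Nucleoid and 105.3 in Naked libraries, with a difference of -0.997 ± 0.24 (SE, adjusted p = 0.0083). It was not among the windows called in every library set.

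At the other end of the scale, 3 windows had almost no signal. The window at positions 36251 to 36300, between psbZ and trnG (ArthCt116), averaged 0.801 in Nucleoid and 0.393 in Naked libraries and was at 0 in 8 of 21 libraries. The window at positions 8001 to 8050, in the divergent gap between trnS (ArthCt091) and trnG (ArthCt092), averaged 2.05 in Nucleoid and 1.10 in Naked libraries. At positions 4651 to 4700, between trnK (ArthCt089) and rps16, the averages were 2.40 in Nucleoid and 0.80 in Naked libraries. All 3 fell under the minimum mean count of 10. With no such minimum, the window at positions 4651 to 4700 was called higher (0.93 ± 0.31, SE, adjusted p = 0.037) and the other two were not (adjusted p = 0.13 and 0.17).

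Summed over whole gaps, 16 of 95 were called higher and 5 lower, against 13.1% higher and 12.6% lower of all 191 runs of gene and intergenic windows. The difference was above 0 in 83 gaps, and the median gap stood at 0.30, against 0.21 over all runs. Higher calls came to 2 of 17 divergent, 11 of 63 tandem and 3 of 15 convergent gaps, and all 5 lower calls to tandem gaps of the repeat that border a ribosomal RNA gene. Called in every library set were 0 gaps higher and 1 gap lower, against 0.0% higher and 2.62% lower of all 191 runs of gene and intergenic windows. That 1 gap was the single window between rrn23S and rrn4.5S. With log2 depth as a covariate, and likewise among deep libraries, 2 gaps were called higher.

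The largest difference among gaps called higher was between ndhE and ndhG, for subunits of the NADH dehydrogenase-like complex. Signal there was 22.9 at the lowest, 46.7 at the median and 68.9 at the highest in Nucleoid libraries, and 6.71, 25.5 and 55.3 in Naked libraries. The difference of 0.96 ± 0.34 (SE, adjusted p = 0.042) lost its call when any of 12 libraries was left out, which were Nucleoid replicates 1 to 8 and Naked replicates 7, 9, 10 and 11. Between ccsA, for a cytochrome c assembly protein, and ndhD, signal was 62.1, 76.5 and 93.2 in Nucleoid and 13.1, 52.9 and 80.9 in Naked libraries. That difference of 0.76 ± 0.26 (SE, adjusted p = 0.034) lost its call without any of Nucleoid replicates 1, 2, 5, 6 and 8 or Naked replicates 9 and 10, with an adjusted p of 0.066 at most. Between psbI and trnS (ArthCt091), a gap with 1 window, it was 0.63 ± 0.22 (SE, adjusted p = 0.038). That call ended without any of Nucleoid replicates 1, 2 and 4 to 8 or Naked replicates 9, 10 and 11. In deep libraries the adjusted p of these 3 gaps was 0.21 to 0.28.

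Of the 5 gaps called lower, 4 kept the call with any 1 library left out, and the gap between ArthCr091 and trnR (ArthCt127) kept it in 12 of 21 such fits. Between rrn16S and trnI signal was 83.5, 108.3 and 129.6 in Nucleoid and 107.1, 150.4 and 214.3 in Naked libraries, a difference of -0.54 ± 0.12 (SE, adjusted p = 0.0044). Between rrn4.5S and ArthCr091 it was 115.6, 130.4 and 140.9 in Nucleoid and 137.9, 159.1 and 245.0 in Naked libraries, a difference of -0.40 ± 0.09 (SE, adjusted p = 0.0047). Between trnV (Arthct121) and rrn16S, the gap that holds the start of the ribosomal RNA operon, it was 110.6, 122.0 and 162.3 in Nucleoid and 127.9, 147.5 and 219.7 in Naked libraries, a difference of -0.37 ± 0.10 (SE, adjusted p = 0.016). Among deep libraries these 3 differences were -0.25, -0.19 and -0.18, with adjusted p-values of 0.18, 0.090 and 0.14. Scaling to the median window ended the call between trnV and rrn16S (adjusted p = 0.053).

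The gaps at the starts of rbcL, psbA and psbD were not called as a whole with all libraries. Between atpB and rbcL, a divergent gap, signal was 64.9 ± 8.5 in Nucleoid and 59.2 ± 11.6 in Naked libraries (difference 0.14 ± 0.11, SE, adjusted p = 0.25), although 5 of its 15 windows were called higher. Between psbA and trnK (ArthCt089) it was 76.0 ± 8.2 in Nucleoid and 68.8 ± 13.8 in Naked libraries (difference 0.16 ± 0.11, SE, adjusted p = 0.19). Both differences took the other sign under median scaling. The longest tandem gap, between trnT (ArthCt098) and psbD, had 59.1 ± 10.3 in Nucleoid and 49.4 ± 13.5 in Naked libraries (difference 0.28 ± 0.15, SE, adjusted p = 0.12), and 5 of its 25 windows were called higher. The longest convergent gap, between petA and psbJ, had 66.7 ± 7.0 in Nucleoid and 56.2 ± 15.3 in Naked libraries (difference 0.29 ± 0.14, SE, adjusted p = 0.098), with 2 of 17 windows called higher. Over all intergenic windows tested 20.6% were called higher and over all windows 15.9%, so the counts in these last 2 gaps were not above the intergenic share.

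The longest divergent gap, 2763 bp between rps7 and trnV (Arthct121) in the inverted repeat, held 55 of the 680 windows. By the known plastid map it also holds exons of rps12, a gene spliced in trans, that the gene table used here does not list, so not all of it is intergenic. Its signal as a whole was 111.5 ± 5.7 in Nucleoid and 111.8 ± 9.9 in Naked libraries, and the difference of -0.00 ± 0.05 (SE) was not called (adjusted p = 0.99). Single windows differed in both directions, with 5 of 55 called higher and 7 lower, against 15.9% higher and 9.06% lower of all windows tested. At positions 99351 to 99400 signal was 21.3, 35.5 and 41.3 in Nucleoid and 10.6, 21.4 and 30.0 in Naked libraries, a difference of 0.68 ± 0.16 (SE, adjusted p = 0.0086). At positions 99701 to 99750 it was 70.9, 96.0 and 152.4 in Nucleoid and 102.6, 138.3 and 172.7 in Naked libraries, a difference of -0.48 ± 0.12 (SE, adjusted p = 0.012). At positions 100201 to 100250 it was 50.3, 62.8 and 91.7 in Nucleoid and 58.4, 96.0 and 113.2 in Naked libraries, a difference of -0.48 ± 0.12 (SE, adjusted p = 0.012). At positions 100351 to 100400, a short way on, it was 39.6, 75.9 and 92.0 in Nucleoid and 34.2, 48.0 and 61.5 in Naked libraries, a difference of 0.54 ± 0.13 (SE, adjusted p = 0.0076). Differences of both signs stood within a gap that was not called as a whole.

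**Figure D5:**
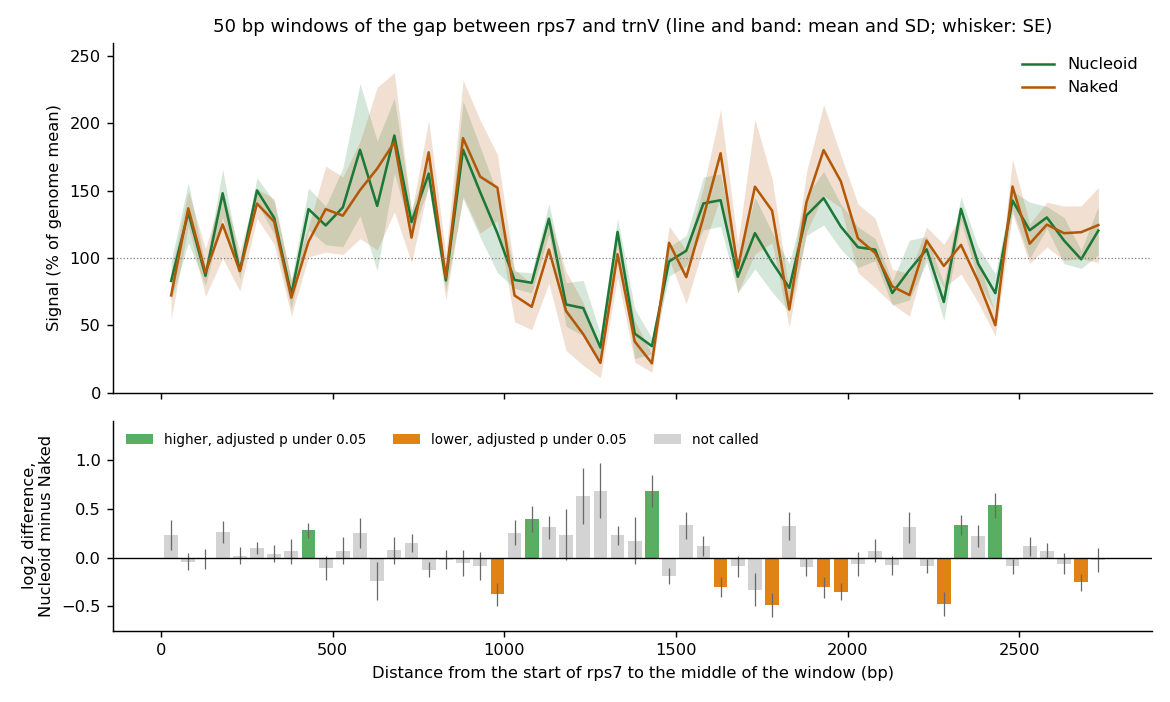
Signal of the 55 windows between rps7 and trnV as a percent of the genome mean (top, mean and SD over libraries, Nucleoid and Naked) and the log2 difference Nucleoid minus Naked with its SE (bottom), against distance in bp from the start of rps7. The peaks and troughs of the fractions lie largely at the same places, and the 5 windows called higher are interspersed with the 7 called lower. Of all windows tested, 15.9% were called higher and 9.06% lower. The mean difference of the gap is -0.00 on the log2 scale and -0.21 under median scaling.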

How the data were processed

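The authors deposited 1 table of whole-number counts of Tn5 insertions, with 154477 positions and 22 libraries; per the file headers positions are TAIR10 plastid coordinates, and the counts are not scaled. Per the submitters' processing notes, Trim Galore 0.4.1, Bowtie2 2.2.8.9 and bedtools 2.25.0 were used; duplicate removal, the Tn5 shift and the treatment of reads matching both repeat copies are not given in the sources used here. Libraries were grouped by their labelled fraction, and 0 columns were left unmatched.

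Gene limits came from a RefSeq table of assembly TAIR10.1 (129 plastid entries, 113 genes in the tiled part). Counts of the repeat copies mirrored each other at that table's axis with r = 0.907, against at most 0.385 at other axes tried. No file gave gene strand, so orientations were written from textbook knowledge of the plastid map. The rRNA gene ArthCr091 was mirrored from its other copy.

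Signal was tested on log2(signal + 1) with limma 3.58.1 in R 4.3.3 (lmFit, eBayes, two-sided, Benjamini-Hochberg over 2560 windows or 191 runs, threshold 0.05, mean count of at least 10), tested on simulated data. Class summaries have no test. Tables were made with pandas 2.3.3 and numpy 2.4.6. The unit check could not read the columns as counts, so no count model was run. Totals ranged from 105763 to 1813905, and errors of single windows are SEs over libraries. Named windows and gaps were the largest differences among those called in every library set, up to 8 in each direction, or the next largest up to 4, with the 3 highest and 3 lowest windows, the longest gaps and 4 gaps at known starts; some that met this rule are not reported here. Members and lists were chosen with earlier results of these data known. Alternatives were scaling, depth, library sets, a replicate block, pseudocount, filters, tiling, single copy regions and voom.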

Additional observations from a re-analysis of the deposited data

Results flagged for a closer look

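Among 47 values tested for a library far from the others of its fraction, 3 stood apart, and chance gives about 2.35. All 3 were in Nucleoid replicate 11, the shallowest Nucleoid library. The window at positions 100351 to 100400 had a signal of 39.6 there and 65.8 to 92.0 in the other Nucleoid libraries. The window at positions 99701 to 99750 had 152.4 there and 70.9 to 105.3 in the others. The gap between atpB and rbcL had 45.5 there and 59.2 to 73.4 in the others.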

How the results depend on the processing

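Calls depended on depth and on single libraries. Of 139 windows called higher, the count was 65 with median scaling, 29 with log2 depth as a covariate, 29 in deep libraries, 54 without Naked replicates 9 to 11, 90 with at least 5 counts in every library and 88 in a fit of the single copy regions alone, with adjustment over those windows. Lower windows, 30 at first, were 13 in deep libraries and 3 in that single copy fit. Leaving out 1 library gave 59 to 249 higher and 21 to 36 lower. Of 16 gaps called higher, the count was 6 with median scaling, 2 with depth, 2 in deep libraries, 6 without Naked replicates 9 to 11, 9 in the single copy fit and 29 with voom, and 7 to 45 with 1 library left out. Of 5 lower gaps, it was 3, 3, 2 (median scaling, depth, deep), 0 in the single copy fit, and 4 to 7 with 1 library left out. The causes were not tested.

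With a replicate block, 253 windows and 39 gaps were called higher, and the gap trnT (ArthCt098) to psbD was then called (0.227, adjusted p = 0.0416 by limma). The numbers were taken not to pair libraries: same-numbered libraries correlated at 0.0916 to 0.72, over 0.1 in 9 of 10 pairs, and 1 of 10 correlated best with its own number.

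Under median scaling, class differences in points were -4.61 for intergenic windows. By distance they were -4.86, -4.93, -1.74, -2.76 and -14.0. They were -4.7 in divergent, -2.79 in tandem and -11.5 in convergent gaps, -3.64 nearest starts, -5.99 nearest ends, -15.2 for transfer RNA and -76.1 for ribosomal RNA neighbours. With libraries scaled to the genome mean, differences in the single copy regions only were 11.2 at 400 bp or more, 9.89 in convergent gaps and 5.57 for transfer RNA neighbours. In that scaling the difference was 11.0 at 400 bp or more without the gap rps7 to trnV, an alternative chosen after seeing the data. Of gaps, rps7 to trnV took the other sign with depth (0.0304), in deep libraries (0.0328), without Naked replicates 9 to 11 (0.0597) and with the replicate block (0.0085), and the gap rps7 to trnV (Arthct121) ran from -0.0154 to 0.0299 with 1 library left out. The gap psbA to trnK (ArthCt089) did so with median scaling (-0.0492) and in deep libraries (-0.0426), and atpB to rbcL with median scaling (-0.0682). The edgeR and DESeq2 alternatives were not run.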
